A study of Mus musculus with 4 samples.

Results

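The genes described here are 47 components of the machinery that copies DNA in S phase, taken by symbol from the 24421 genes of the deposited count table. They cover origin recognition and licensing, the replicative helicase and its activators, the polymerases, the sliding clamp and its loader, single-strand binding, Okazaki fragment joining, fork protection and histone deposition behind the fork. Their levels were compared in LSK cells, the sorted bone marrow population that lacks lineage markers and carries Kit and Sca-1, between mice without Zfp521 (Zfp521-/-, labelled knockout, here KO) and littermates labelled wild type (WT). Each group had 2 libraries of independent RNA samples from pooled cells. The labels name no tissue restriction of the knockout, and the sources used here give neither the age and sex of the animals nor how many were pooled. The labels do not say that the libraries of a group came from separate animals, so p-values reflect only how these 4 samples vary. The WT libraries differed in sex-linked transcripts, as given below, and so were not repeats of 1 sample, while for KO the spread may be technical.

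Replication starts at origins bound by the origin recognition complex, where Cdc6 and Cdt1 load the MCM ring in G1. In S phase the kinase Cdc7 with Dbf4, together with Cdc45 and the GINS complex, turns the ring into the active helicase, and polymerases, the clamp PCNA and the fork proteins follow it. Transcription of many of these genes rises toward S phase under E2F factors, and among LSK cells most long-term stem cells are quiescent while many multipotent progenitors cycle. Counts from bulk samples do not distinguish fewer cells in cycle from less RNA per cell.

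Library totals lay between 17787425 and 29863594 counts, and the members held from 155 to 15800 counts per library. Counting error was thus small beside the larger gaps between libraries. It was not small beside the smallest gaps, as for Rfc4 in KO at 20.4 and 20.3 CPM. Zfp521 itself was at 56.1 and 57.5 CPM (the count scaled to library size with TMM factors) in WT and at 13.9 and 10.9 CPM in KO. This was a log2 fold change of -2.19 with an SE of 0.23 (adjusted p = 0.000491 in the quasi-likelihood test of edgeR). The sort markers Kit and Ly6a, which encodes Sca-1, were present in all libraries, with Kit at 617 and 708 CPM in WT and 697 and 702 CPM in KO. A list of 7 markers added Ptprc, Cd34, Flt3, Slamf1 and Cd48, which are not part of the sort as described. Of the 7 only Cd34 was called (lower, -0.61, edgeR adjusted p = 0.0408). Without a call, Cd48 (-0.60) lay below WT in both KO libraries, and Ptprc (0.38), Flt3 (0.40) and Slamf1 (0.66) lay above. WT replicate 2 held 5606 counts of 4 Y-linked genes and 606 of Xist, which the inactive X expresses, a male pattern. The other 3 libraries held 9 to 14 Y-linked counts and 160613 to 230977 of Xist, so WT means average over both patterns while both KO libraries show the female one. KO replicate 2 had the lowest share of the ribosomal precursor Rn45s, 9.37% against 14.6% to 15.7%.

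Markers of other cell types moved with genotype in most of the lists used, but not in all. For comparison, 3.01% of all genes tested were called lower and 3.77% higher in the same edgeR test. Of 11 B cell markers 9 were lower in KO, with a summed level of 507 to 594 CPM in WT and 89.6 to 119 CPM in KO. Of 12 dendritic cell markers 8 were higher. The sum of the 11 other than Flt3 went from 140 CPM in each WT library to 875 to 1061 CPM in KO. Batf3 was at 0 counts in both WT libraries. Among mast cell and basophil markers 6 of 11 were higher (155 CPM in each WT library and 277 to 417 CPM in KO without Kit), among neutrophil markers 7 of 12 (442 to 628 and 924 to 1194 CPM) and among monocyte and macrophage markers 3 of 10 (440 to 476 and 591 to 675 CPM). Of 6 tested erythroblast markers 1 was higher, and the 9 in the table summed to 178 to 451 CPM in WT and 450 to 893 CPM in KO, and the globin genes Hba-a1 and Hbb-bt, whose copies are near-identical and hence uncertain, were at 0 counts in all libraries. None of 5 tested T and NK cell markers was called (summed over 9 genes, 88.0 to 92.0 CPM in WT and 77.5 to 77.9 CPM in KO). The part of these cells in the values of the replication genes was not tested.

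In KO, 17 of the 47 replication genes were lower and none was higher, and the sum of all 47 was 4890 and 4422 CPM in WT against 3215 and 2582 CPM in KO, 62.2% of the WT level. The genes that fell came from 8 of the 11 groups formed by step, and included the clamp Pcna, the ligase Lig1, 4 of 6 MCM ring genes and 3 of 4 subunits of polymerase alpha and primase. No member of the fork protection or histone deposition groups passed the threshold. Across all 14140 genes tested, 3.01% were called lower and 3.77% higher (edgeR quasi-likelihood test, adjusted p under 0.05 over all genes). Among the 8402 genes at least as abundant as the least abundant member, Gins3, 4.7% were called lower and 3.51% higher. With upper quartile factors 69.7% of all calls were higher, against 55.6% here. The median log2 fold change of the members was -0.71, against 0.02 for all genes tested and -0.09 for those of at least that abundance, and 45 of 47 members had a negative fold change, against 48.8% of all genes tested and 58.9% of those as abundant. At an unadjusted p under 0.05, 34 members were lower, against 1619 of all 14140 genes tested (11.4%).

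Both KO libraries lay below both WT libraries for 37 members and above them for none, while the groups overlapped for 10. Over all genes tested, 27.6% lay below and 28.8% above without overlap, and among genes at least as abundant as Gins3 36.4% and 22.3%. In the plot of levels by library the fall is seen in both KO libraries, and KO replicate 2 was below KO replicate 1 for 36 members, 76.6%, against 50.8% of all genes tested. WT replicate 2 was below WT replicate 1 for 39 members, 83.0%, against 49.7% of all genes tested.

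**Figure D1:**
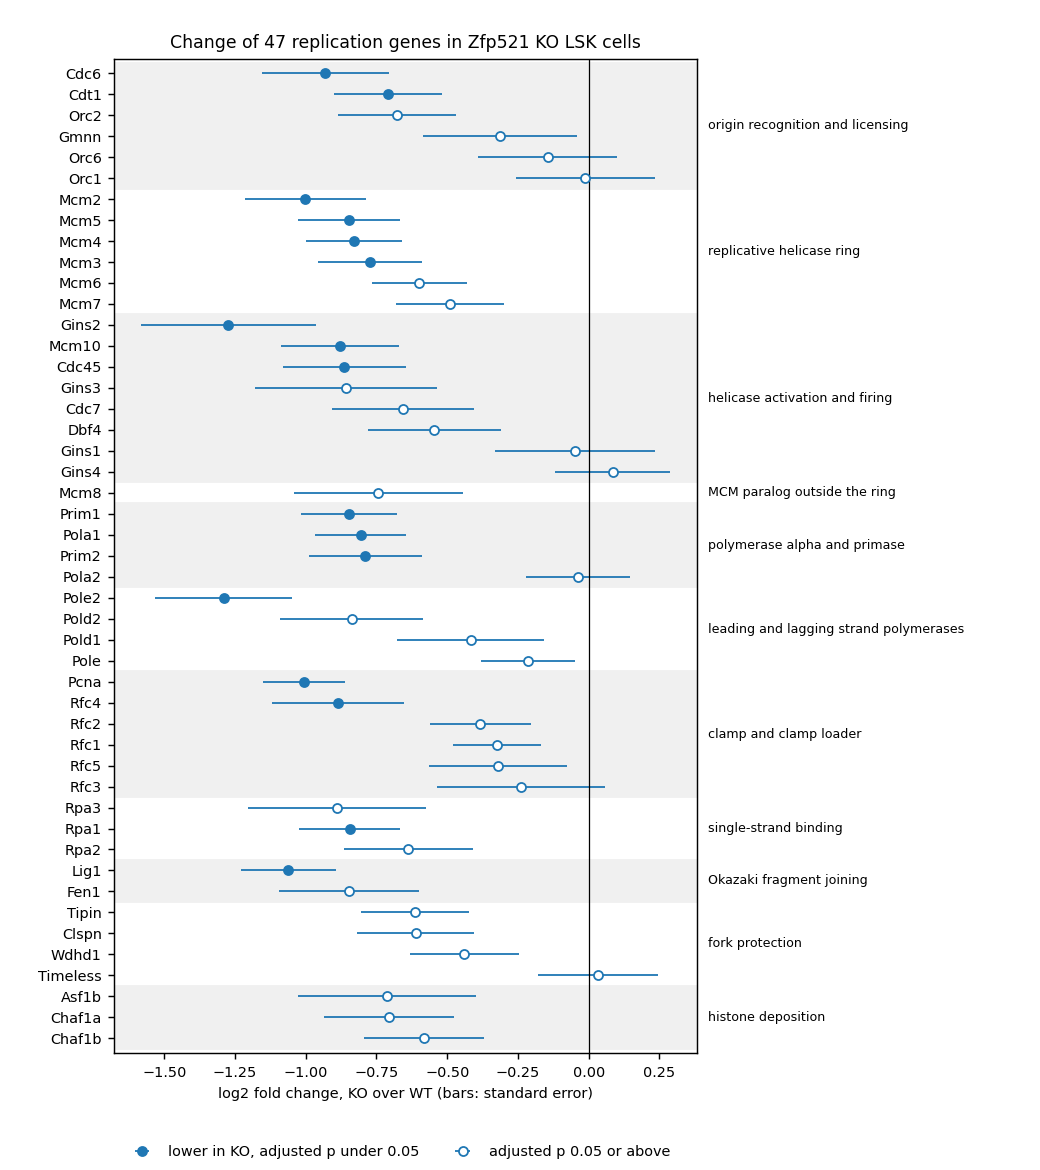
Log2 fold change of KO over WT (horizontal axis) with its standard error for each of the 47 replication genes, grouped by step. Filled points are the 17 genes that fell, with an adjusted p under 0.05, and open points are the 30 that did not pass, among them Gins4 and Timeless, whose points lie above 0.

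**Figure D2:**
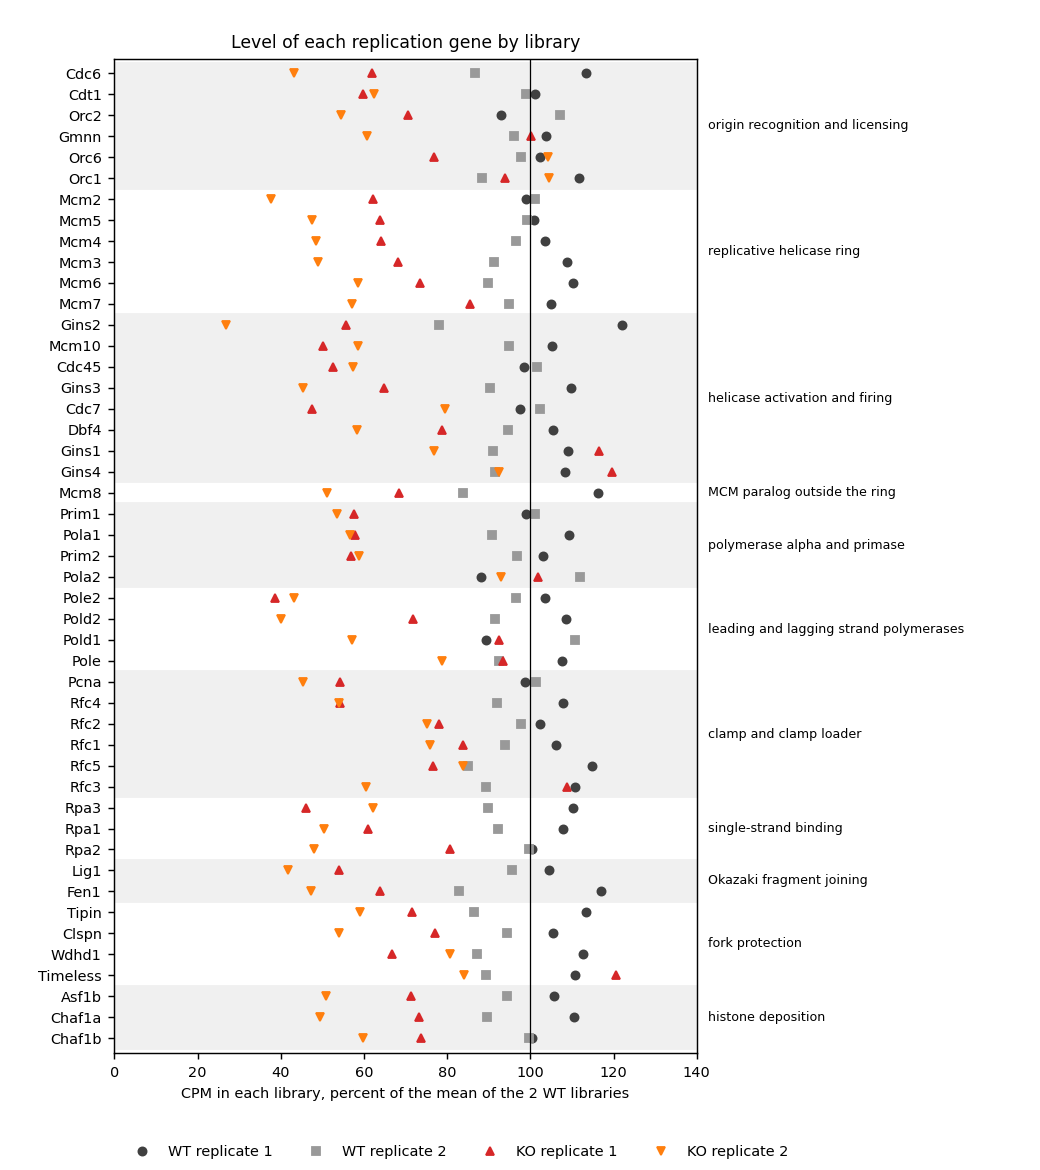
CPM of each gene in each of the 4 libraries, as a percent of the mean of the 2 WT libraries (horizontal axis), grouped by step. Circles and squares are WT replicates 1 and 2, and triangles pointing up and down are KO replicates 1 and 2. For 37 genes both triangles lie left of both WT symbols.

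The number of calls depended on which libraries were used. It fell to 2 when WT replicate 1 was left out and to 3 when WT replicate 2 was, where the shares of all genes called lower were 0.642% and 0.685%, 29 without KO replicate 1 (7.88% of all genes) and 14 without KO replicate 2 (2.84%), and 27 with no filter on low counts (5.59%). DESeq2 called 23 members (5.70%), the 17 called as reported and 6 more, Chaf1a, Fen1, Mcm6, Orc2, Pold2 and Tipin. Pcna and Lig1 were called under each of 11 alternative settings, and Gins2 under all but the loss of WT replicate 1. The median of the members stayed negative under each of them, at -0.63 and -0.81 without WT replicates 1 and 2, and at -0.81 and -0.51 without KO replicates 1 and 2.

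**Figure D3:**
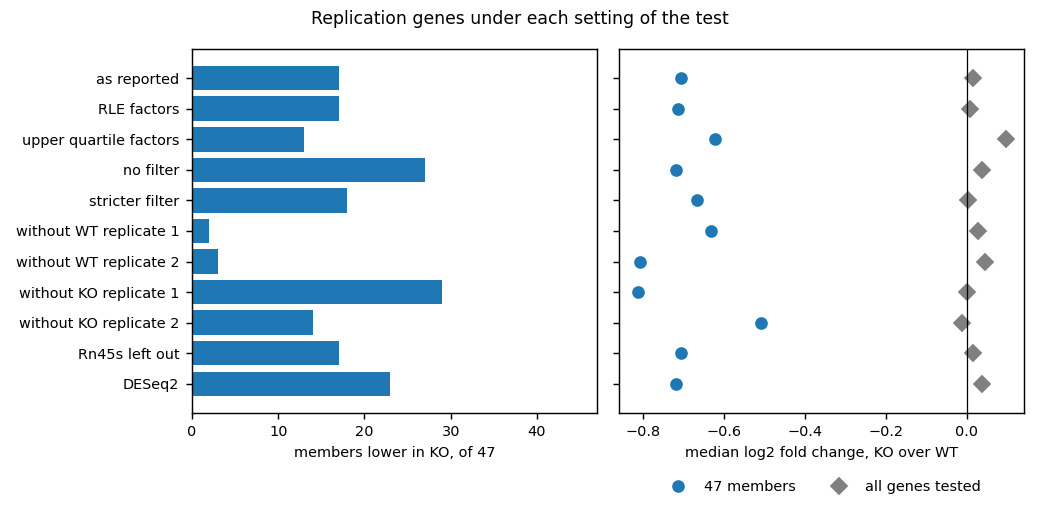
Left, how many of the 47 replication genes passed as lower (adjusted p under 0.05) by setting of the test. The setting with the replicate number as a block, which gave 30, is not drawn. Right, median log2 fold change of KO over WT for the 47 genes (circles) and for all genes tested (diamonds). The count falls to 2 and 3 without a WT library, while the median of the members stays between -0.81 and -0.51.

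Promoter windows of RefSeq (GRCm38.p6, 250 bases before to 50 after a start site) were listed for 38 of the 47 members, 45 windows in all. RefSeq and GENCODE can place the start of a gene differently. The Timeless window (128237816 to 128238115) lies inside a gene that GENCODE starts at 128232065. Because many of these genes are known E2F targets, the windows were searched on both strands for the common forms of the E2F motif. These were the letters TTTCCCGC, TTTCGCGC, TTTGCCGC and TTTGGCGC. The part of E2F factors in the values of these genes was not tested. At least 1 match was in the windows of 15 of the 38 genes (39.5%), against 476 of 10593 tested genes with a window (4.49%), and in 33.3% of member windows against 3.72% of windows of tested genes and 2.26% of all 32851 windows. Matches were listed for 7 of 14 members that were lower and for 8 of 24 that were not called. The letters CCAAT were in 57.8% of member windows and 37.4% of windows both of tested genes and of all genes, and TTTGAA, the core of the cell cycle homology region, in 20.0% of member windows, 12.2% of windows of tested genes and 17.9% of all windows. Median GC content was 61.3% in member windows and 60.0% in windows of tested genes. A match is a string of letters and not a measured site, and since GCGC reads alike on both strands, 2 forms that hold it can overlap on opposite strands, as TTTCGCGC and TTTGGCGC do in Mcm5 and Mcm6.

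The stretches below run from 170 bases before to 30 after the RefSeq start site, 5′ to 3′ on the gene's strand, with E2F matches in capitals. GENCODE starts Cdc6 at 98907801, so by that annotation the whole Cdc6 stretch and its match lie inside the gene. Cdc6, Mcm5 and Pole2 are shown as members that fell and hold a match, Mcm6 and Orc1 as members that hold a match and were not called, and Pcna as the member with the smallest p and no match in its window.
Cdc6, chr11:98907981-98908180, plus strand: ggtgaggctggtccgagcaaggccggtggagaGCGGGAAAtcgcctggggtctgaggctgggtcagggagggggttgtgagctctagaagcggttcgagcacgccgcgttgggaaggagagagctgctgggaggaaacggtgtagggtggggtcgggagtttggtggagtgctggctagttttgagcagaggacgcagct
Mcm5, chr8:75109339-75109538, plus strand: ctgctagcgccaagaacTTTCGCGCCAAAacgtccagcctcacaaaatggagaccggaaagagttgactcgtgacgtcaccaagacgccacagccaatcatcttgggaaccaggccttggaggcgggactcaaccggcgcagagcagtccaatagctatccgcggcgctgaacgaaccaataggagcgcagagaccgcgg
Pole2, chr12:69228161-69228360, minus strand: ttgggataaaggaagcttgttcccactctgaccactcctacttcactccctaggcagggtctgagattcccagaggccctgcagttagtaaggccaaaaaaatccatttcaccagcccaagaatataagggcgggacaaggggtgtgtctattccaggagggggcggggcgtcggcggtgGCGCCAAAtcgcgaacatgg
Mcm6, chr1:128359676-128359875, minus strand: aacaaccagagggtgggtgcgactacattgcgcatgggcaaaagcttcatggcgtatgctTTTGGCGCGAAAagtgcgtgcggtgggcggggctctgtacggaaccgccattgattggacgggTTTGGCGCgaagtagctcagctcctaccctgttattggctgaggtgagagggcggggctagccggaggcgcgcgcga
Orc1, chr4:108579284-108579483, plus strand: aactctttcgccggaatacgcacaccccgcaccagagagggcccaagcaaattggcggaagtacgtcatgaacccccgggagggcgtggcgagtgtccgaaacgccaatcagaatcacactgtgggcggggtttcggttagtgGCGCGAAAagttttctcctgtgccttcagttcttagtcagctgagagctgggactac
Pcna, chr2:132253151-132253350, minus strand: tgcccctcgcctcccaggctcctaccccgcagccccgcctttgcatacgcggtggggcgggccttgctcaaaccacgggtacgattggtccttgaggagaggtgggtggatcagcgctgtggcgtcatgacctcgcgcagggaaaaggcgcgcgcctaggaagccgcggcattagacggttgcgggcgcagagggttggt
Counting the RefSeq start site as 0, the match began at -138 in Cdc6, at 10 in Pole2 and at -27 in Orc1. Mcm5 held 2 overlapping matches, from -153 and -149. Mcm6 held 3 matches, from -110, -106 and -47.

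Among the origin recognition and licensing genes the loading factors Cdc6 and Cdt1 fell, while none of the 3 origin recognition genes passed. Cdc6, the ATPase that recruits the helicase to origins, was at 86.4 and 66.1 CPM in WT and 47.1 and 32.8 CPM in KO. Its log2 fold change of KO over WT, the quantity given first in each bracket from here on, was -0.93 (SE 0.22, edgeR adjusted p = 0.0326). Cdt1, which escorts the MCM ring to the origin, was at 60.0 and 58.7 CPM in WT and 35.5 and 37.0 CPM in KO (-0.71, SE 0.19, edgeR adjusted p = 0.0481). The KO values of both genes lay below both WT values, and neither was called when a WT library or KO replicate 2 was left out. With upper quartile factors Cdt1 also missed the threshold (edgeR adjusted p = 0.0712). Orc1, the largest subunit of the origin recognition complex, was at 29.7 and 23.5 CPM in WT and 24.96 and 27.7 CPM in KO (-0.01, SE 0.25, edgeR adjusted p = 0.984), so its groups overlapped. Orc6 overlapped too (-0.14, SE 0.25), and Orc2 was lower in both KO libraries without passing (-0.68, SE 0.21, edgeR adjusted p = 0.0743). Annotated exons of Orc2 overlap Nif3l1 on the opposite strand over 29.8% of their length (Nif3l1 log2 fold change -0.33), so its counts are uncertain. Gmnn encodes geminin, the inhibitor of Cdt1, and was at 32.7 and 30.2 CPM in WT and 31.5 and 19.1 CPM in KO (-0.31, SE 0.27). The Cdt1 to Gmnn ratio of reads was 1.84 and 1.94 in WT and 1.13 and 1.94 in KO, so KO replicate 2 was at the WT level and KO replicate 1 below it.

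All 6 genes of the MCM ring, the motor of the replicative helicase, were lower in both KO libraries, and 4 passed the threshold. Mcm2 was at 191 and 195 CPM in WT and 120 and 72.9 CPM in KO (-1.001, SE 0.21, edgeR adjusted p = 0.0196). The WT libraries were nearly equal, whereas KO replicate 2 was at 0.606 times the level of KO replicate 1. Mcm4 was at 259 and 241 CPM in WT and 160 and 121 CPM in KO (-0.83, SE 0.17, edgeR adjusted p = 0.0165), and Mcm5 at 143 and 141 CPM against 90.7 and 67.4 CPM (-0.85, SE 0.18, edgeR adjusted p = 0.0196). Mcm3 was lower as well (-0.77, SE 0.18, edgeR adjusted p = 0.0313). The smallest differences in the ring were those of Mcm6 (-0.60, SE 0.17, edgeR adjusted p = 0.0541) and Mcm7 (-0.49, SE 0.19, edgeR adjusted p = 0.137). With no filter on low counts both were called lower, and DESeq2 called Mcm6 lower. Mcm7 was at 243 and 220 CPM in WT and 198 and 132 CPM in KO. None of the 4 called genes of the ring passed with only 1 of the WT libraries, where Mcm2 had adjusted p-values of 0.0727 and 0.0916, and Mcm3 also missed the threshold when KO replicate 2 was left out (0.0574).

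Per exonic length (RPKM, from GENCODE exons of the same build), Mcm4 and Mcm6 were the most abundant ring transcripts in WT, at 69.6 and 69.1 RPKM on average. Mcm3 followed at 61.6, Mcm7 at 52.3, Mcm5 at 35.6 and Mcm2 at 27.8 RPKM. Over the WT libraries the range of Mcm6 (62.1 to 76.2) overlapped those of Mcm4 (67.2 to 72.1) and Mcm3 (56.2 to 66.9), while Mcm5 and Mcm2 lay below the other 4 in each library. Mcm2 was the lowest ring member in all 4 libraries, with a distance from the highest of 2.77-fold and 2.39-fold in WT and of 2.94-fold and 3.86-fold in KO. The ring proteins assemble in equal numbers, and these are levels of RNA whose length basis rests on an annotation that may differ from the authors'.

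**Figure D4:**
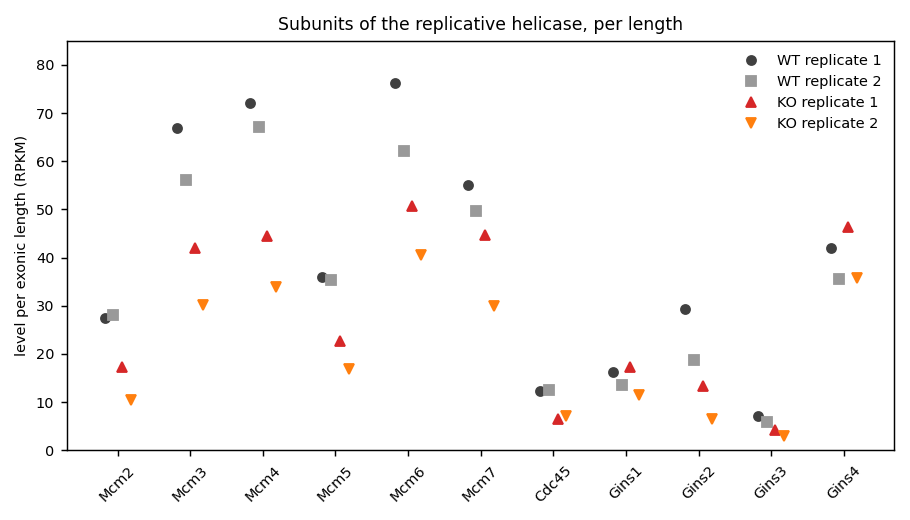
Level per exonic length (RPKM, vertical axis) of the 6 MCM ring genes, Cdc45 and the 4 GINS genes in each library, with circles and squares for WT replicates 1 and 2 and triangles up and down for KO replicates 1 and 2. The ring genes are lower in both KO libraries, whereas the values of Gins1 and Gins4 overlap between the groups.

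Genes that convert the ring into a moving helicase split. Cdc45, the helicase cofactor, was at 42.8 and 44.1 CPM in WT and 22.8 and 24.9 CPM in KO (-0.86, SE 0.22, edgeR adjusted p = 0.0384). Mcm10, an initiation factor that is not part of the ring, was at 56.2 and 50.6 CPM against 26.8 and 31.3 CPM (-0.88, SE 0.21, edgeR adjusted p = 0.0302). In both genes the replicates were closer to each other than to the other genotype, yet neither was called without a WT library, and Cdc45 also missed the threshold with upper quartile factors. The kinase Cdc7 (-0.66, SE 0.25) and its activator Dbf4 (-0.55, SE 0.23) did not pass. Cdc7 was at 49.9 and 52.4 CPM in WT and at 24.3 and 40.7 CPM in KO, so it was higher in KO replicate 2 than in KO replicate 1, unlike most members.

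The 4 GINS genes encode 1 tetramer, yet their transcripts gave different values. Gins2 was at 120 and 76.6 CPM in WT and 54.8 and 26.5 CPM in KO (-1.27, SE 0.31, edgeR adjusted p = 0.0333), with wide spread inside each group. Gins3 was lower in both KO libraries without passing (-0.86, SE 0.32, edgeR adjusted p = 0.126). Gins1 (-0.05, SE 0.28, edgeR adjusted p = 0.937) and Gins4 (0.08, SE 0.20) overlapped between the groups. Gins1 was at 24.6 and 20.6 CPM in WT and 26.3 and 17.3 CPM in KO. Gins4 was at 56.8 and 47.9 CPM in WT and 62.6 and 48.4 CPM in KO. The Gins2 to Gins4 ratio of reads, which does not depend on the scaling of libraries, was 2.11 and 1.60 in WT and 0.874 and 0.547 in KO. Gins2 shares 67.3% of its annotated exonic bases with Gse1 on the opposite strand (log2 fold change 0.40), and without a stated strand setting its counts are uncertain.

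Mcm8, a paralog that acts in recombination repair and is no part of the ring, was at 26.1 and 18.8 CPM in WT and 15.4 and 11.5 CPM in KO (-0.74, SE 0.30, edgeR adjusted p = 0.151). Its groups did not overlap, but it did not pass.

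Of polymerase alpha and primase, the enzyme that lays down RNA-DNA primers, 3 of 4 subunits fell by similar amounts. Pola1, the catalytic subunit, was at 184 and 153 CPM in WT and 97.5 and 95.4 CPM in KO (-0.81, SE 0.16, edgeR adjusted p = 0.0155). Pola1 lies on the X chromosome, and its fold change was -0.67 when WT replicate 1 was left out and -0.95 when WT replicate 2, the library with Y-linked counts, was. Prim1, the primase catalytic subunit, was at 93.6 and 95.6 CPM against 54.6 and 50.6 CPM (-0.85, SE 0.17, edgeR adjusted p = 0.0161), and Prim2 at 55.7 and 52.4 CPM against 30.8 and 31.8 CPM (-0.79, SE 0.20, edgeR adjusted p = 0.0384). In these 3 genes the KO libraries were close to each other. Pola2, the accessory subunit, was at 65.3 and 83.0 CPM in WT and 75.6 and 68.9 CPM in KO (-0.04, SE 0.18, edgeR adjusted p = 0.926). The Pola1 to Pola2 ratio was 2.82 and 1.84 in WT and 1.29 and 1.38 in KO, whereas the Prim1 to Prim2 ratio overlapped, at 1.68 and 1.83 against 1.77 and 1.59. None of the 3 was called without either WT library, and Prim2 also missed the threshold with upper quartile factors (edgeR adjusted p = 0.0558).

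The member with the lowest fold change was Pole2, the second subunit of the leading strand polymerase epsilon. Pole2 was at 38.3 and 35.7 CPM in WT and 14.3 and 16.0 CPM in KO (-1.29, SE 0.24, edgeR adjusted p = 0.0119), 40.9% of the WT mean. Pole, the catalytic subunit of the same enzyme, was at 142 and 122 CPM in WT and 123 and 104 CPM in KO (-0.21, SE 0.17, edgeR adjusted p = 0.455), with overlapping groups. The Pole2 to Pole ratio was 0.269 and 0.293 in WT and 0.116 and 0.153 in KO. Pole2 missed the threshold without either WT library (adjusted p up to 0.110), with log2 fold changes between -1.38 and -1.21 over all alternatives. Of the lagging strand polymerase delta, Pold2 was lower in both KO libraries (-0.84, SE 0.25, edgeR adjusted p = 0.0692) and the catalytic Pold1 overlapped (-0.42, SE 0.26). Neither passed.

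Pcna, the sliding clamp that tethers polymerases to DNA, had the smallest p among the members. It was at 568 and 582 CPM in WT and 312 and 260 CPM in KO (-1.01, SE 0.15, edgeR adjusted p = 0.00301), 49.8% of the WT mean. Per length it was the most abundant member in both groups, at 239 RPKM in WT and 119 RPKM in KO on average, above Mcm4 as the next in WT. Its adjusted p remained below 0.05 when any 1 library was left out (highest adjusted p = 0.0295). The annotation lists processed copies of Pcna elsewhere in the genome, which are not analysed here.

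Of the 5 clamp loader genes only Rfc4 passed, at 40.6 and 34.6 CPM in WT and 20.4 and 20.3 CPM in KO (-0.89, SE 0.23, edgeR adjusted p = 0.0446). It lost the call with upper quartile factors and when a WT library or KO replicate 2 was left out. Rfc1, the large subunit, was at 180 and 159 CPM in WT and 142 and 129 CPM in KO (-0.32, SE 0.16, edgeR adjusted p = 0.224). Rfc2 (-0.38, SE 0.18) and Rfc5 (-0.32, SE 0.24) were likewise below WT in both KO libraries without passing. Rfc3 was at 32.1 and 25.9 CPM in WT and 31.6 and 17.6 CPM in KO (-0.24, SE 0.30, edgeR adjusted p = 0.661), with overlapping groups. The Rfc4 to Rfc1 ratio was 0.225 and 0.217 in WT and 0.143 and 0.158 in KO. Annotated exons of Rfc2, Rfc4 and Rfc5 overlap a gene on the opposite strand by 15.1%, 12.7% and 10.7% of their length.

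All 3 genes of RPA, the complex that coats single-stranded DNA at the fork, were lower in both KO libraries. Rpa1 was at 125 and 107 CPM in WT and 70.8 and 58.3 CPM in KO (-0.84, SE 0.18, edgeR adjusted p = 0.0193) and was the 1 that passed. Rpa2 was at 98.1 and 97.3 CPM against 78.8 and 46.8 CPM (-0.64, SE 0.23, edgeR adjusted p = 0.109), and Rpa3 at 19.7 and 16.0 CPM against 8.23 and 11.1 CPM (-0.89, SE 0.31, edgeR adjusted p = 0.108). Rpa1 missed the threshold without either WT library.

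Lig1, the ligase that seals Okazaki fragments, was at 285 and 260 CPM in WT and 148 and 114 CPM in KO (-1.06, SE 0.17, edgeR adjusted p = 0.00467). Like Pcna it kept its call without any 1 library (highest adjusted p = 0.0362). Fen1, the nuclease that trims the flap before ligation, was at 58.7 and 41.6 CPM in WT and 32.1 and 23.7 CPM in KO (-0.85, SE 0.25, edgeR adjusted p = 0.0620) and did not pass. An antisense gene, Gm10143, covers 78.8% of the annotated exonic bases of Fen1, so its counts are uncertain.

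None of the 4 fork protection genes passed, although Tipin was called lower under 4 of 11 alternatives, DESeq2 among them (adjusted p = 0.0348), and Clspn under 3. Tipin was at 113 and 86.2 CPM in WT and 71.3 and 58.9 CPM in KO (-0.61, SE 0.19, edgeR adjusted p = 0.0775), and Clspn, which relays the replication checkpoint signal to Chek1, at 81.5 and 72.9 CPM against 59.5 and 41.6 CPM (-0.61, SE 0.21, edgeR adjusted p = 0.0964). Wdhd1, which links the helicase to polymerase alpha, was also below WT in both KO libraries (-0.44, SE 0.19). Timeless, the partner of Tipin, was at 72.1 and 58.1 CPM in WT and 78.4 and 54.7 CPM in KO (0.03, SE 0.21, edgeR adjusted p = 0.946). The Tipin to Timeless ratio was 1.57 and 1.48 in WT and 0.909 and 1.08 in KO.

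The 3 histone deposition genes gave log2 fold changes between -0.71 and -0.58 and none passed, although Chaf1a was called lower under 4 of 11 alternatives and Chaf1b under 2. Chaf1a, the large subunit of the chromatin assembly factor CAF-1, was at 70.4 and 57.1 CPM in WT and 46.7 and 31.5 CPM in KO (-0.71, SE 0.23, edgeR adjusted p = 0.0856). Chaf1b was at 47.1 and 46.7 CPM against 34.5 and 28.0 CPM (-0.58, SE 0.21). The histone chaperone Asf1b was at 17.8 and 15.9 CPM against 11.98 and 8.54 CPM (-0.71, SE 0.31, edgeR adjusted p = 0.189). The genotypes did not overlap in these 3 genes, and the Chaf1a to Asf1b ratio was within 3.60 to 3.96 in all 4 libraries. Annotated exons of Chaf1a overlap Ubxn6 on the opposite strand over 52.5% of their length.

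Ratios of reads between replication genes were formed for 16 pairs, those with the smallest and largest p in each step and known partners, chosen after their values were seen. The ratio was lower in both KO libraries than in both WT libraries for 10 pairs and overlapped for 6. With 2 libraries against 2 an exact two-sided permutation test cannot give a p below 0.333, and pairs picked for their p had to differ, so these ratios are a description.

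**Figure D5:**
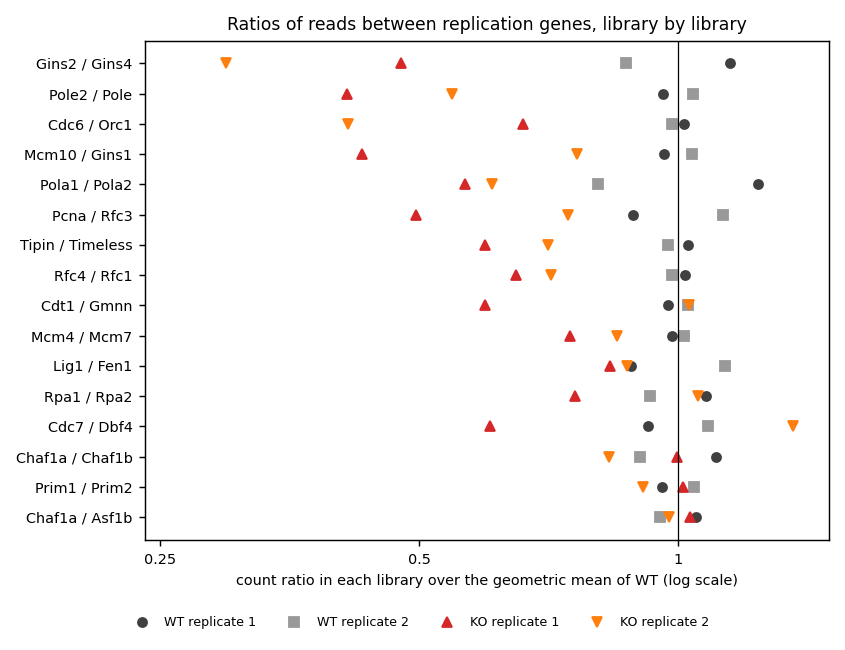
Ratio of counts between 2 replication genes in each library, divided by the geometric mean of the ratio in the WT libraries (horizontal axis, log scale), with circles and squares for WT replicates 1 and 2 and triangles up and down for KO replicates 1 and 2. Gins2 over Gins4 and Pole2 over Pole lie farthest left in KO, while Prim1 over Prim2 and Chaf1a over Asf1b stay close to 1.

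Of the members, 9 start within 1000 bases of a divergent protein-coding gene in GENCODE that is also in the count table. Pairs whose starts overlap by more than 100 bases were left out. None of these 9 neighbours was called in either direction, where 3.01% of all genes tested were called lower and 3.77% higher. At those shares a set of 9 genes may well hold no call. At an unadjusted p under 0.05 there was 1, against 3465 of all 14140 genes tested. The median log2 fold change of the neighbours was -0.08, against -0.55 for the 9 members, of which 2 were lower. Mcm4 (chromosome 16, 15623897 to 15637400, minus strand, mm10) starts 466 bases from Prkdc, the catalytic subunit of DNA-dependent protein kinase, which was at 96.4 and 92.2 CPM in WT and 99.0 and 111 CPM in KO (0.16, SE 0.16, edgeR adjusted p = 0.589). Rpa1 starts 109 bases from Smyd4 (-0.39, SE 0.37), and Orc1 starts 87 bases from Prpf38a (-0.01, SE 0.21).

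Of 44 further replication genes 11 fell and none rose, where 3.01% of all genes tested were called lower and 3.77% higher. Their median log2 fold change was -0.46, against 0.02 for all genes tested. The gene with the smallest p was Pclaf, a PCNA-binding factor listed as 2810417H13Rik, which fell from 108 ± 2.11 to 37.7 ± 2.20 CPM (SD, n = 2 each, WT then KO), a log2 fold change of -1.52 (SE 0.17, edgeR adjusted p = 0.000808). Dtl, the adaptor that marks Cdt1 for degradation on PCNA, fell from 187 ± 25.7 to 84.9 ± 14.2 CPM (-1.14, SE 0.18, edgeR adjusted p = 0.00464). Chek1, the checkpoint kinase, fell from 66.9 ± 6.61 to 27.1 ± 5.61 CPM (-1.30, SE 0.22, edgeR adjusted p = 0.00704), and Ticrr, which helps to load Cdc45, from 106 ± 18.4 to 57.2 ± 1.28 CPM (-0.89, SE 0.18, edgeR adjusted p = 0.0168). The other 7 were Supt16, Hat1, Uhrf1, Dnmt1, Top1, Slbp and Fam111a, with fold changes between -0.88 and -0.63. The origin recognition genes Orc3, Orc4 and Orc5 were not called (0.05, 0.38 and 0.32). The count of 11 became 4 and 2 when WT replicates 1 and 2 were left out, and 17 when KO replicate 1 was.

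Of 19 E2F, pocket protein and MuvB regulators, which set the timing of cell cycle transcription, 3 fell and none rose. Of all genes tested, 3.01% were called lower and 3.77% higher. The median of the 19 was -0.34, against 0.02 for all genes tested. How these 3 calls fare with a library left out is not given here. Mybl2, a MuvB partner, fell from 44.5 ± 3.93 to 21.2 ± 7.59 CPM (-1.07, SE 0.27, edgeR adjusted p = 0.0389). Tfdp1, the dimer partner of E2F proteins, fell from 311 ± 22.1 to 193 ± 44.9 CPM (-0.68, SE 0.17, edgeR adjusted p = 0.0404), and Foxm1, a factor of mitotic transcription, from 107 ± 15.6 to 66.6 ± 6.90 CPM (-0.68, SE 0.18, edgeR adjusted p = 0.0446). Rbl2, which encodes the pocket protein p130 found in quiescent cells, was at 136 and 129 CPM in WT and 186 and 190 CPM in KO (0.51, SE 0.15, edgeR adjusted p = 0.0616). It was above WT in both KO libraries and did not pass.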

How the data were processed

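Libraries were made from 20 ng of RNA and read for 76 cycles, per the labels' protocols. The authors deposited raw counts of reads for each gene, unnormalised. Build mm10, HTSeq 0.8.0, TopHat2 2.1.1, Picard 2.9.4 and SAMtools 1.5 are named in the submitters' processing notes. The sources used here give no annotation or strand setting, and unstranded reads of overlapping genes cannot be told apart.

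Counts were tested in edgeR 4.0.16 (R 4.3.3) with TMM factors, filterByExpr (minimum count 10, minimum total 15) and the quasi-likelihood test over all genes, with Benjamini-Hochberg adjustment and a threshold of 0.05. Each standard error is the fold change over the root of its F value. The biological coefficient of variation was 0.266. All 47 members passed the filter. RPKM values use merged GENCODE vM21 exons. All members could be named. In full are given the smallest and largest p per step, other members being chosen after their values were seen, and the 4 smallest p of each further list. Members and lists were chosen with earlier results of these data known. On simulated counts (13896 genes tested, KO against WT) the test recovered 51 of 100 genes with a 2-fold and 82 of 100 with a 4-fold change, with 2 false calls. The simulation used the spread fitted to these data, and changed genes were drawn only above a minimum count. The median SE was 0.21 for the members and 0.28 for all genes tested, so these rates are not those of the members. Alternatives were other factors, filters, DESeq2 1.42.0, a replicate block, Rn45s left out and each library left out.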

Additional observations from a re-analysis of the deposited data

How the results depend on the processing

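No member was called higher under any alternative run. Of the members lower, 27 passed with no filter and between 2 and 29 with 1 library left out, where the lone sample of a group is assumed to vary like the other group. Over all genes, lower and higher calls numbered 425 and 533 as reported, 987 and 1056 with no filter, 816 and 858 in DESeq2, and 95 to 1161 and 160 to 997 with 1 library left out. Higher calls were 55.6% of all as reported and 69.7% with upper quartile factors. Under those factors 13 members were lower, beside 2.04% of all genes tested. The 44 further replication genes gave 2 to 17 lower with 1 library left out. The labels give replicate numbers but no shared animal or batch, and deviations of same-numbered libraries had a correlation of 0.076 across genes. With the replicate number as a block, 30 members, 19 further replication genes, 1314 genes lower and 1312 higher were called. All 17 members called as reported were among those 30. The signs of members near 0 changed. Orc1, Gins1 and Pola2 were at 0.069, 0.033 and 0.044 with upper quartile factors, and Orc1 and Pola2 at 0.027 and 0.0010 with the stricter filter of 1 CPM in every library. With 1 library left out the fold change ran from -0.19 to 0.16 for Orc1, -0.39 to 0.052 for Orc6, -0.39 to 0.21 for Gins1, -0.12 to 0.25 for Gins4, -0.20 to 0.13 for Pola2, -0.73 to 0.11 for Rfc3 and -0.26 to 0.26 for Timeless. The cause of these shifts was not tested. Across 11 alternatives and 47 members, 420 values kept their direction and their side of the threshold. Zfp521 kept its call in all of them. Every member had at least 155 counts in each library, and 2 libraries per group limit the precision.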

Other observations

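The KO libraries differed in how far the replication genes fell. The largest gap was that of Gins2, at 0.483 times its KO replicate 1 level in KO replicate 2, followed by Rfc3 (0.556), Pold2 (0.560), Rpa2 (0.594), Gmnn (0.605) and Mcm2 (0.606). Other members stood almost level between these libraries, such as Rfc4 (0.994), Pola1 (0.978), Prim2 (1.03) and Cdt1 (1.04), and Cdc7 was higher in KO replicate 2 (1.67). Across the 47 members, WT level per length and log2 fold change had a Pearson correlation of -0.28 and a Spearman correlation of -0.29, a description over genes that share the same 4 libraries. Both quantities use the same WT counts, so error in WT alone can make the correlation negative. It does not show whether more abundant genes fell more.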
